A study of Oryctolagus cuniculus with 8 samples.

Results

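The DLK1-DIO3 miRNAs of rabbit were followed in extracellular vesicles (particles with a membrane, shed by cells) of oviductal and uterine fluid. The members were chosen by name from a list of 46 miRNA numbers known from this locus, with both arms of each precursor. The deposited table held 34 of these numbers, which gave 68 mature names of 579 in all. Of the 68, 28 had at least 1 read in any library (41.2%, against 63.8% of the other names) and 40 had none. The locus is imprinted: the paternal chromosome expresses DLK1, RTL1 and DIO3, and the maternal one expresses long noncoding transcripts that carry the miRNAs. A first group lies antisense to RTL1, a gene needed in placenta and muscle, and a long run that begins with miR-379 and holds miR-410 near its end follows farther on. These miRNAs are known from embryo, placenta, brain and mesenchymal cells.

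Both groups came from wild-type, multiparous California x New Zealand white does, all given the same hormones. They received the gonadotropin eCG (25 IU), followed after 48 h by 20 µg of a synthetic GnRH analogue, which induces ovulation. Tracts were collected 14 to 15 h after that injection, so no group without hormones exists. The flush was 1 mL for oviductal and 2.2 mL for uterine libraries, so flush volume and fluid cannot be told apart. All flushes were spun at 300 g (7 min) and 10000 g (30 min) and passed through a 0.22 µm filter. The oviductal group has 5 libraries, each a pool of 3 animals, and the uterine group has 3, each a pool of 5 (replicates titled 12, 3 and 4, of which the first has the number 1 in the table). The study used 21 does, fewer than the places in the pools, so pools may share does, and p-values measure only the spread between pools. The question of the series was how the vesicle miRNAs of the 2 fluids compare.

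Oviductal libraries held 42684 to 569087 miRNA reads and uterine libraries 232546 to 479865. Levels are counts scaled to 1000000 reads of the library (CPM). Oviductal replicates 2 and 3 were the shallowest, where 1 read is worth 21.0 and 23.4 CPM, against 1.76 to 4.30 CPM in the other 6. A member with 0 reads in a library may still stand at up to 3 reads, between 5.27 CPM in oviductal replicate 5 and 70.3 CPM in oviductal replicate 3. These floors and all intervals cover counting error only. As a check of the tissue, a list of epithelial miRNAs was summed (miR-200c, miR-141, miR-205 and miR-375, with 6 of 8 arms read). It held 5.42% to 6.19% of oviductal reads and 0.722% to 3.02% of uterine reads. Most of that was miR-200c-3p and miR-375-3p, with means of 39515 and 15268 CPM in oviductal and 13262 and 4421 CPM in uterine libraries. The listed miR-141-3p did not follow, with means of 891 CPM in oviductal and 906 CPM in uterine libraries.

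All 34 precursors of the members were found in RefSeq's gene table of the assembly mOryCun1.1, and all 34 lie between DLK1 and DIO3. Of these, 4 lie within RTL1 (miR-433, miR-127, miR-432 and miR-136). That assembly is not the build of the reads, so it is used here for order only. The same stretch holds 36 miRNA genes, and the 2 outside the list, miR-1197 and the second copy of miR-376c, had no read under their own names (miR-376c-5p, shared by both copies, had none either).

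The members took few reads. Together they had 2761 reads, 0.117% of all reads, and miR-381-3p, miR-127-3p and miR-379-5p held 72.4% of them. The miR-379/miR-410 run held 55.5% of the members' reads, the group antisense to RTL1 40.7% and miR-370, which lies between them, 3.84%. The upstream member, miR-337, had no read on either arm.

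The share of a library's reads in the members was 0.0686%, 0.130%, 0.183%, 0.0487% and 0.0603% in oviductal replicates 1 to 5. In uterine replicates 12, 3 and 4 it was 0.0826%, 0.0333% and 0.515%. Uterine replicate 4 was thus above all other libraries and uterine replicate 3 below all of them. The 95% exact binomial interval was 0.489% to 0.541% in uterine replicate 4 and 0.144% to 0.228% in oviductal replicate 3, the next highest. Averaged, the share was 0.210% ± 0.265 in uterine vesicles (SD, n = 3) and 0.0981% ± 0.0569 in oviductal vesicles (SD, n = 5). The difference of 0.112 percentage points is smaller than the pooled SD within the groups, 0.160, and became -0.0402 without uterine replicate 4. In such bulk samples, fewer vesicles from a cell type and fewer copies per vesicle cannot be told apart.

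**Figure D1:**
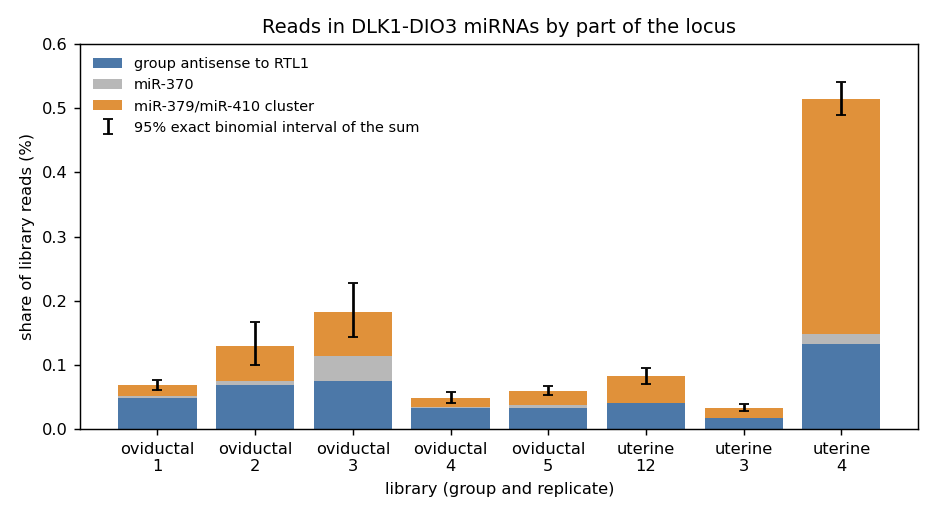
Bars give the share of each library's reads (%) in the DLK1-DIO3 miRNAs, split by place in the locus, with the 95% exact binomial interval of the sum. Uterine replicate 4 stands at 0.515%, and the other 7 libraries lie between 0.0333% and 0.183%.

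Uterine replicate 4 held 54.3% of all the members' reads but 12.3% of the reads of the 8 libraries. How far it stood from the next library differed between the parts of the locus. That next library was oviductal replicate 3 each time, the shallowest, with 29 reads of the run, 32 of the group antisense to RTL1 and 17 of miR-370. For the miR-379/miR-410 run, its share of 0.367% was 5.40 times that of the next library, at 0.0679%. For the group antisense to RTL1, its share of 0.134% was 1.78 times that of the next, at 0.0750%. For miR-370 its share of 0.0144% was 0.362 of that in oviductal replicate 3, at 0.0398%. All the remaining libraries were below uterine replicate 4 for miR-370, the highest of them oviductal replicate 2 at 0.00630%. Without miR-381-3p, its most read member, the others held 0.262% of reads in uterine replicate 4 and 0.0298% to 0.143% in the other 7 libraries.

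Of the 8 lists of other cell types, 4 (stroma, muscle, erythrocyte and leukocyte) also had their highest share in this library. The stromal list (miR-199a and miR-214, whose 4 arms all had reads) held 0.220% of reads in uterine replicate 4 against 0.0126% to 0.0515% in the oviductal libraries and 0.0283% to 0.0297% in the other uterine ones. Of that list miR-214-5p had 38 reads in uterine replicate 4 and 0 elsewhere. The list of muscle miRNAs, with 8 of 18 names read and miR-143 and miR-145 among them, held 4.69% in uterine replicate 4, 2.57% and 0.569% in uterine replicates 12 and 3, and 0.388% to 0.477% in the oviductal libraries. Most of that was miR-143-3p, at 44325 CPM in uterine replicate 4. Of the miRNAs of striated muscle, miR-1-3p was at 120 CPM there against 2322 and 754 CPM in uterine replicates 12 and 3. The level of miR-206-3p, 27.5 CPM, was lowest there of all 8 libraries. In contrast, miR-499-5p had 6 reads there, 1 in uterine replicate 12 and 0 elsewhere. The level of miR-133a-3p was 34.3 CPM there, 12.9 and 8.34 CPM in uterine replicates 12 and 3, and 231 CPM in oviductal replicate 2. No library had a read of miR-133b, miR-208a or miR-208b. The erythrocyte list (4 of 5 names with a read) held 0.768% there, 0.362% and 0.123% in uterine replicates 12 and 3, and 0.0922% to 0.288% in the oviductal libraries. The leukocyte list (6 of 10 names with a read) held 0.367% there, 0.144% and 0.0786% in uterine replicates 12 and 3, and 0.102% to 0.245% in the oviductal libraries. The other 4 lists did not peak in uterine replicate 4. There epithelial miRNAs held 1.98% of reads and those of multiciliated cells 1.34% (2.77% to 6.14% in the oviductal libraries). Neural miRNAs held 1.65% (2.14% to 3.28% in the oviductal libraries), and the liver miRNA miR-122 held 0.0299%, against 0.306% in uterine replicate 12. The neural sums hold both miR-128a-3p and miR-128b-3p, whose counts were equal in every library. The same reads may thus be counted under both names, which would raise these neural shares. The part of stromal, muscle or blood vesicles in the members' level was not tested.

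**Figure D2:**
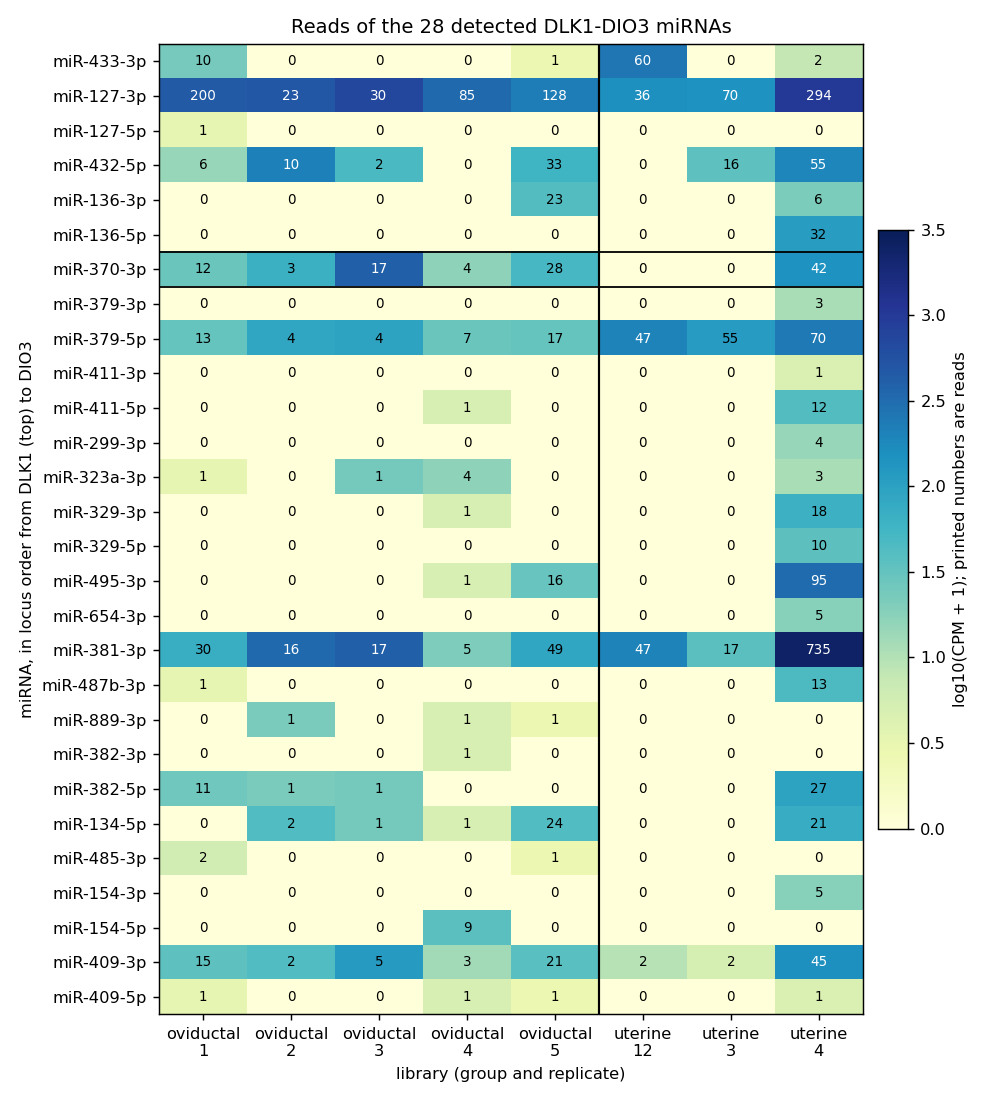
Each cell prints the reads of 1 detected member (rows, in locus order) in 1 library (columns), coloured by log10(CPM + 1), with lines between the group antisense to RTL1, miR-370 and the miR-379/miR-410 run. The column of uterine replicate 4 has reads in 23 rows, and those of uterine replicates 12 and 3 in 5 rows each.

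The number of members with a read was 13, 9, 9, 14 and 13 in oviductal replicates 1 to 5 and 5, 5 and 23 in uterine replicates 12, 3 and 4. The uterine group therefore held both the lowest and the highest numbers. The order did not follow depth, since uterine replicate 3, the second deepest library, had 5. After every library was thinned to the 42684 reads of the smallest, 16.9 were expected in uterine replicate 4, 3.73 and 4.33 in uterine replicates 3 and 12, and 5.77 to 9 in the oviductal libraries. The other miRNAs varied less under the same thinning, with 209 expected in uterine replicate 4, 159 and 131 in uterine replicates 3 and 12, and 170 to 193 in the oviductal libraries.

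**Figure D3:**
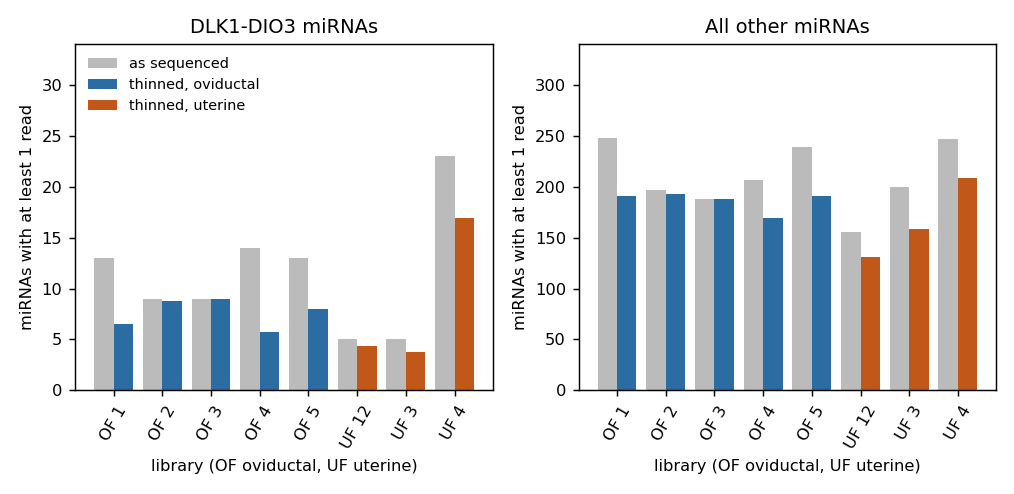
Bars give the number of miRNAs with at least 1 read in each library as sequenced (grey) and the number expected after thinning to the smallest library (blue oviductal, orange uterine), for the members (left) and all other miRNAs (right). For the members, uterine replicate 4 stands at 16.9 after thinning and the other 7 libraries at 3.73 to 9.

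Of the 28 detected members, 16 were read in both groups, 7 in uterine libraries alone and 5 in oviductal libraries alone. All 7 uterine ones were read in uterine replicate 4 and in no other library, with 1 to 32 reads. The 5 oviductal ones had 1 to 9 reads in all. The same split by group is not given for the other miRNAs, so it is not read as a trait of the members. Single-library detection was found for 35.7% of the detected members and 16.3% of the other detected miRNAs, and 60.7% of the detected members had their highest CPM in uterine replicate 4, against 25.8% of the others. These shares are descriptions, since that library was singled out after its values were seen.

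Counts were compared with edgeR's quasi-likelihood test over 178 miRNAs with enough reads, at a Benjamini-Hochberg adjusted p threshold of 0.05. Of the 68 members 7 had enough reads, 21 had reads but too few and 40 had none. None of the 7 passed, while 1.69% of all tested miRNAs did. At an unadjusted p under 0.05 there were 2 of the 7, miR-381-3p and miR-379-5p, against 15.7% of all tested, and neither DESeq2 nor limma-voom called a member. The fold change was above 0 for 6 of the 7, against 48.9% of all tested, with a median log2 value of 0.32 for the members and -0.02 for all. Without uterine replicate 4 it was above 0 for 2 of the 7, against 41.6% of all tested, and the medians were -0.99 and -0.40. These 7 were kept by a filter on low counts, so their count and median do not describe the 68.

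Within the group antisense to RTL1, miR-127-3p was the most abundant. Its target is RTL1, to which it is perfectly complementary. The level of miR-127-3p was 453.0, 483.2, 702.8, 333.9 and 224.9 CPM in oviductal replicates 1 to 5 and 154.8, 145.9 and 1009.2 CPM in uterine replicates 12, 3 and 4. The uterine libraries lay on both sides of the whole oviductal range. The mean was 436.6 ± 495.9 CPM over the 3 uterine libraries and 439.6 ± 179.3 CPM over the 5 oviductal ones (SD), and the log2 fold change was 0.11 ± 0.71 (SE, edgeR adjusted p = 0.978). Without uterine replicate 4 it was -0.82 (edgeR adjusted p = 0.566).

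The neighbour miR-432-5p, also complementary to RTL1, was uneven in both groups. Its level was 13.6, 210, 46.9, 0 and 58.0 CPM in oviductal replicates 1 to 5 and 0, 33.3 and 189 CPM in uterine replicates 12, 3 and 4. The ranges of the groups nearly coincide, and the log2 fold change was 0.46 ± 1.52 (SE, edgeR adjusted p = 0.938), or -0.99 without uterine replicate 4. A different library stood out for miR-433-3p, the first of this group, with 60 reads (258 CPM) in uterine replicate 12, 10 in oviductal replicate 1, 2 in uterine replicate 4, 1 in oviductal replicate 5 and 0 in the other 4. It was the most read member of uterine replicate 12, while miR-127-3p was in 6 libraries and miR-381-3p in uterine replicate 4. The fourth precursor, miR-136, gave 23 reads of its 3p arm in oviductal replicate 5 and 6 in uterine replicate 4, and 32 of its 5p arm in uterine replicate 4. No other library had a read of either arm.

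The level of miR-370-3p, which lies by itself in the locus, was 27.2, 63.0, 398, 15.7 and 49.2 CPM in oviductal replicates 1 to 5, and 144.2 CPM in uterine replicate 4. Uterine replicates 12 and 3 had 0 reads, so it was read in all 5 oviductal libraries but 1 uterine library. Of the 7 tested members it was the one with a negative log2 fold change, -1.06 ± 1.62 (SE, edgeR adjusted p = 0.825). That sign rests on oviductal replicate 3, where 398 CPM are 17 reads: without it the log2 fold change was 0.24.

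Within the miR-379/miR-410 run, miR-379-5p, its first miRNA, was the most even. Its level was 29.4, 84.0, 93.7, 27.5 and 29.9 CPM in oviductal replicates 1 to 5 and 202, 115 and 240 CPM in uterine replicates 12, 3 and 4. All 3 uterine libraries were above all 5 oviductal ones. It was the 1 of the 7 whose groups did not overlap in CPM, a separation found for 14.6% of all tested miRNAs. The oviductal values nearest to the uterine ones, 84.0 and 93.7 CPM, were 4 reads each, and the gap was not tested against counting error. The mean was 185.7 ± 64.4 CPM over the 3 uterine libraries and 52.9 ± 33.0 CPM over the 5 oviductal ones (SD). The log2 fold change of 2.31 ± 1.04 (SE) did not pass (edgeR adjusted p = 0.256, unadjusted p = 0.0389). Over 18 alternatives it stayed between 1.91 and 2.94 and passed in none (lowest adjusted p 0.0813, by DESeq2), and without uterine replicate 4 it was 2.42.

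The other abundant member of the run, miR-381-3p, was carried by 1 library. Its level was 67.9, 336, 398, 19.6 and 86.1 CPM in oviductal replicates 1 to 5 and 202, 35.4 and 2523 CPM in uterine replicates 12, 3 and 4. Uterine replicates 12 and 3 lay within the oviductal range, and uterine replicate 4, with 735 reads, far above it. The log2 fold change was 2.50 ± 1.03 (SE, edgeR adjusted p = 0.188, unadjusted p = 0.0274). It was 0.22 without uterine replicate 4 (edgeR adjusted p = 0.942), and passed without uterine replicate 3, at 2.91 (edgeR adjusted p = 0.0324), and with no filter on low counts, at 2.78 (edgeR adjusted p = 0.0256).

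**Figure D4:**
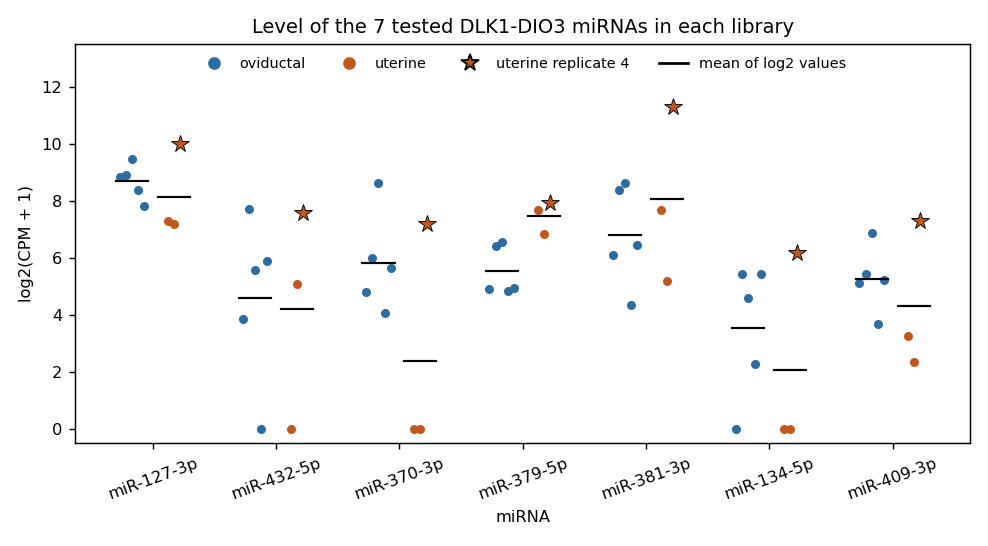
Points give log2(CPM + 1) of the 7 tested members in each library, with oviductal libraries in blue, uterine in orange, uterine replicate 4 as a star and bars at the mean of the log2 values. The star is the highest point for miR-127-3p, miR-379-5p, miR-381-3p, miR-134-5p and miR-409-3p, and miR-379-5p has all 3 uterine points above the oviductal ones.

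The remaining tested members of the run were low. The level of miR-409-3p was 33.97, 42.0, 117, 11.8 and 36.9 CPM in oviductal replicates 1 to 5 and 8.60, 4.17 and 154.5 CPM in uterine replicates 12, 3 and 4. Uterine replicates 12 and 3, with 2 reads each, were below every oviductal library and uterine replicate 4 above every one. Its log2 fold change of 0.32 ± 1.36 (SE, edgeR adjusted p = 0.964) became -2.07 without uterine replicate 4 (edgeR adjusted p = 0.481). The level of miR-134-5p, known from neurons where it limits dendritic spine size, was 0, 42.0, 23.4, 3.93 and 42.2 CPM in oviductal replicates 1 to 5 and 72.1 CPM in uterine replicate 4, with 0 reads in uterine replicates 12 and 3. The log2 fold change of miR-134-5p was 0.20 ± 1.67 (SE, edgeR adjusted p = 0.978). It turned to -5.32 without uterine replicate 4, a value fitted against 0 uterine reads, and was -0.083 by DESeq2 and -0.87 by limma-voom.

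For several members of the run with too few reads for the test, uterine replicate 4 held most reads. The most read, miR-495-3p, had 95 reads there (326 CPM), 16 in oviductal replicate 5 and 1 in oviductal replicate 4. For miR-382-5p the reads were 27 there, 11 in oviductal replicate 1 and 1 each in oviductal replicates 2 and 3. The 2 arms of miR-329 had 18 (3p) and 10 (5p) reads there, and the 3p arm 1 in oviductal replicate 4. For miR-487b-3p 13 of 14 reads, and for miR-411-5p 12 of 13, were in that library. By contrast miR-323a-3p had 3 of 9 reads there and 4 in oviductal replicate 4, and miR-409-5p had 1 read in each of 4 libraries. The other 10 detected members, of all parts of the locus, had 1 to 9 reads in total.

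No read was found for 14 of the 34 precursors. Among them were miR-376a, miR-376b and miR-376c, a family of close copies in the middle of the run, and miR-369, miR-410 and miR-656, the last 3 of the run, next to miR-409 with its 99 reads. A count of 0 over all 8 libraries allows up to 3 reads, or 1.27 CPM. How the authors' counting treated reads that match several close copies was not stated by any source used here.

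**Figure D5:**
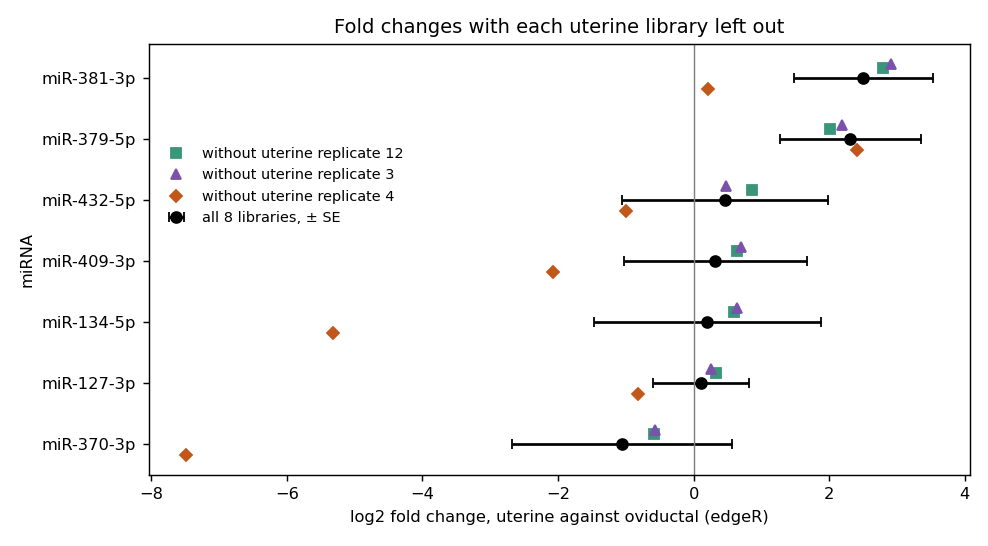
Black points give the log2 fold change of uterine against oviductal vesicles for the 7 tested members with all 8 libraries (± SE), and coloured points the value with 1 uterine library left out. Without uterine replicate 4 (orange) miR-381-3p is at 0.22 and miR-379-5p at 2.42, and the lowest points, miR-370-3p and miR-134-5p, are fitted against 0 uterine reads and so depend on the fit's prior count.

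Which miRNA led the cluster differed between libraries. Of the members' reads, miR-127-3p took 66.0%, 37.1%, 38.5%, 68.5% and 37.3% in oviductal replicates 1 to 5 and 18.8%, 43.8% and 19.6% in uterine replicates 12, 3 and 4. Uterine replicates 12 and 4 were below all the oviductal libraries in this share, and uterine replicate 3 was among them. The share of miR-381-3p lay between 4.03% and 25.8% in oviductal libraries and was 24.5%, 10.6% and 49.03% in uterine replicates 12, 3 and 4.

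Ratios between 2 members of 1 library need no scaling between libraries. Reads of miR-379-5p per read of miR-127-3p were 0.0650, 0.174, 0.133, 0.0824 and 0.133 in oviductal replicates 1 to 5 and 1.31, 0.786 and 0.238 in uterine replicates 12, 3 and 4. All uterine ratios were above all oviductal ones, with uterine replicate 4 nearest to them (95% exact binomial interval of the ratio 0.181 to 0.310). Oviductal replicates 2 and 3 rested on 4 reads of miR-379-5p each (0.0437 to 0.509 and 0.0341 to 0.378). Their intervals and that of oviductal replicate 5 (0.0750 to 0.221) overlapped the interval of uterine replicate 4. The pair of miR-379-5p and miR-127-3p was chosen after its values were seen, so no test is given. Reads of miR-381-3p per read of miR-127-3p lay between 0.0588 and 0.696 in oviductal libraries and were 1.31, 0.243 and 2.50 in uterine replicates 12, 3 and 4, so these ranges overlapped.

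One arm of the hairpin gave nearly all reads for most precursors. The 3p arm held 866 of 867 reads of miR-127, all 916 of miR-381, all 112 of miR-495, all 106 of miR-370 and 96.0% of miR-409. The 5p arm held 217 of 220 reads of miR-379, every read of miR-432, all 49 of miR-134 and 40 of 41 of miR-382. Both arms were well represented for miR-136 (32 reads of 5p and 29 of 3p) and miR-329 (10 and 19). For miR-136 the balance was not the same in its 2 libraries, with 3p alone in oviductal replicate 5 and mostly 5p in uterine replicate 4. The few reads of miR-154 were also split, with 9 of 5p, all in oviductal replicate 4, and 5 of 3p, all in uterine replicate 4. Of the 20 precursors with reads, 13 were led by the 3p arm and 7 by the 5p arm.

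Of a short list of miRNAs of other imprinted loci (miR-675, miR-483, miR-335, miR-296 and miR-298), miR-335, which lies in MEST, was the one found in the table. Its 3p arm had 113, 273, 492, 78.6 and 181 CPM in oviductal replicates 1 to 5 and 0, 52.1 and 120 CPM in uterine replicates 12, 3 and 4. Uterine replicate 4 lay inside the oviductal range here, while its summed share of the DLK1-DIO3 members was above that range. The 5p arm of miR-335 had no read.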

How the data were processed

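The authors deposited 1 table with read counts (whole numbers, 1 row for each mature miRNA of each precursor) for 8 libraries, and RPM in the same table, which per the file headers are normalized values. Each deposited RPM value equalled its count scaled to a library sum of 1000000, within 0.005. The submitters' processing notes name OryCun2.0 as build and FastQC. The aligner and counter were not given in the sources used here. For each of 579 names (615 rows) the most read row was kept. CPM were computed from counts, without TMM. Tests used edgeR 4.0.16 (quasi-likelihood, robust, TMM, filterByExpr) in R 4.3.3 over all miRNAs, checked on simulated counts. Alternatives were other scalings and filters, DESeq2 1.42.0, limma-voom (limma 3.58.1), summed rows, blocks and libraries left out. Named members passed the filter, had 10 reads in a library or were read in 4 libraries. Members and lists were chosen with earlier results of these data known. Each of 7 members, with at most 10 reads, had the same profile as another name.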

Additional observations from a re-analysis of the deposited data

Results flagged for a closer look

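In the oviductal group, 3 of 14 sets of values checked had 1 library far from the other 4 (Dixon test at the 95% level). Chance alone does this in about 1 group in 20. The level of miR-432-5p was 210 CPM in oviductal replicate 2 (10 reads), and 58.0 CPM in the next. The level of miR-370-3p was 398 CPM in oviductal replicate 3 (17 reads), and 63.0 CPM in the next. The level of miR-409-3p was 117 CPM in oviductal replicate 3 (5 reads), and 42.0 CPM in the next. These are the 2 shallowest libraries. Their share in these values was not tested.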

How the results depend on the processing

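Over all miRNAs tested, the median log2 value, -0.02, was -0.31 with library totals only, 0.19 with upper-quartile factors and -0.40 by limma-voom, and the number past the threshold, 3, ranged from 0 to 27. With at least 10 reads in every library miR-127-3p was the 1 member tested, and without both shallow libraries 5 were. No member passed in 17 of 19 alternatives, and 1 did, miR-381-3p, with no filter and without uterine replicate 3 (0 to 1 over libraries left out). The 17 include the fits with a replicate block below, which could hardly call any. The log2 fold change reversed without uterine replicate 4 for miR-127-3p (-0.82), miR-409-3p (-2.07), miR-432-5p (-0.99) and miR-134-5p (-5.32). That of miR-127-3p also reversed without oviductal replicate 5 (-0.08), of miR-370-3p without oviductal replicate 3 (0.24), and of miR-134-5p without oviductal replicates 1 (-0.18) or 4 (-0.08). DESeq2 gave -0.083 and limma-voom -0.87 for miR-134-5p, and limma-voom -0.40 for miR-409-3p. The cause was not tested. Over libraries left out the log2 fold change was -0.82 to 0.32 for miR-127-3p, -5.32 to 0.63 for miR-134-5p, -7.48 to 0.24 for miR-370-3p, -2.07 to 0.77 for miR-409-3p and -0.99 to 1.45 for miR-432-5p; the 2 lowest are fitted against 0 uterine reads. The difference in the share of reads was -0.0402 to 0.200 over libraries left out. The difference in members with a read, -0.600, is smaller than the spread. It was 0.707 after thinning (-3.58 without uterine replicate 4 as well, chosen after seeing the data), 2.53 at 3 reads, 2.73 at 10 reads, and -6.60 to 2.40 over libraries left out.

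With a replicate block, no member passed by either number, nor did any of the 178 tested miRNAs (0 in both). Only libraries that share a number inform the comparison in these fits. By title these are replicates 3 and 4, and by library name also oviductal replicate 1 with uterine replicate 12. That leaves little to estimate the spread from, so 0 calls were likely in advance and say little. With these blocks the log2 fold change was -0.47 for miR-127-3p by library name and, for miR-409-3p, -0.93 by library name and -0.017 by title. Deviations of same-numbered libraries had correlations of -0.150, -0.150 and -0.0975, within -0.154 to 0.177 over all pairs of an oviductal and a uterine library. Deviations from the means of such small groups cannot exclude shared does. The numbers are not stated to pair pools, so the main test used no block.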
